A study of Mus musculus with 6 samples.

Results

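A set of 10 genes of ion, water and solute transport in the choroid plexus epithelium was followed in the mouse hippocampus: Slc4a5, Aqp1, Kcne2, Kcnj13, Clic6, Cldn2, Slc16a8, Folr1, Steap1 and Slc2a12. They were taken by gene symbol, all 10 were found, and they belong to a table of 475 genes that the authors listed as differentially expressed. RNA sequencing was done on the whole hippocampus of one hemisphere from 6 C57Bl/6 mice aged 4 months, with 3 mice in each group. All mice, controls included, were trained in contextual fear conditioning, recalled the memory in the context and then went through spaced extinction. During extinction the CI-994 group was injected each day with CI-994, an inhibitor of histone deacetylases, at 30 mg/kg, and the VEH group with its vehicle, and hippocampi were taken 1 h after the last session. No group without conditioning or extinction was analysed here.

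The choroid plexus is a sheet of epithelial cells in the ventricles that secretes cerebrospinal fluid. Sodium, bicarbonate and chloride are moved across the epithelium by carriers and channels on both of its faces, water follows through aquaporin and between the cells, and vitamins and metals are carried from blood to fluid. The plexus of the lateral ventricle lies against the hippocampus, so it can enter a dissected hippocampus. The 10 genes were chosen with their ratios known, so those ratios are given as a description, without a test.

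For each gene the table gave 1 expression value per group, in arbitrary units, which combined the 3 mice of the group. Values per mouse and library totals were not analysed here, so the spread between mice and the depth behind each value are unknown, and whether the groups overlap cannot be seen. Quoted p-values come from the authors' deposited table. Directions were read from the labelled group values as log2(CI-994/VEH). The table's own log2 column is headed CI-994 vs VEH but held the reverse ratio in all 475 genes (within 0.001). If its header is right and the value columns are exchanged, every direction below turns around. Of the genes on the Y chromosome, Ddx3y had 0.0503 units in CI-994 against 7.73 in VEH and Uty 0.00821 against 2.12, while Xist, the X-linked RNA of X inactivation, was at 25.3 and 8.46 units. Sex is not labelled, so for every gene below, autosomal or not, a difference in sex between the groups and the treatment cannot be told apart.

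All 10 transport genes were higher in CI-994 than in VEH, as were 41.9% of the 475 genes in the table. Their ratios ran from 3.52-fold for Slc2a12 to 16-fold for Slc16a8, with a median log2 ratio of 3.58 (11.9-fold). Since 6 of the VEH values were under 1 unit, the size of this median depends on how low values are treated, and with 1 unit added to both values it was 2.20 (4.6-fold). The median of all genes in the table was -0.34. In a bulk tissue sample, more epithelial cells and more RNA of these genes per cell cannot be told apart. At least 4-fold higher were 9 of the 10, against 6.74% of the table, and at least 8-fold higher were 8 of the 10, against 2.53%. A deposited p-value up to 0.001 was listed for all 10, and 14.5% of the table was higher with such a value. Since the genes were chosen on this contrast, these shares describe the choice and support nothing further.

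**Figure D1:**
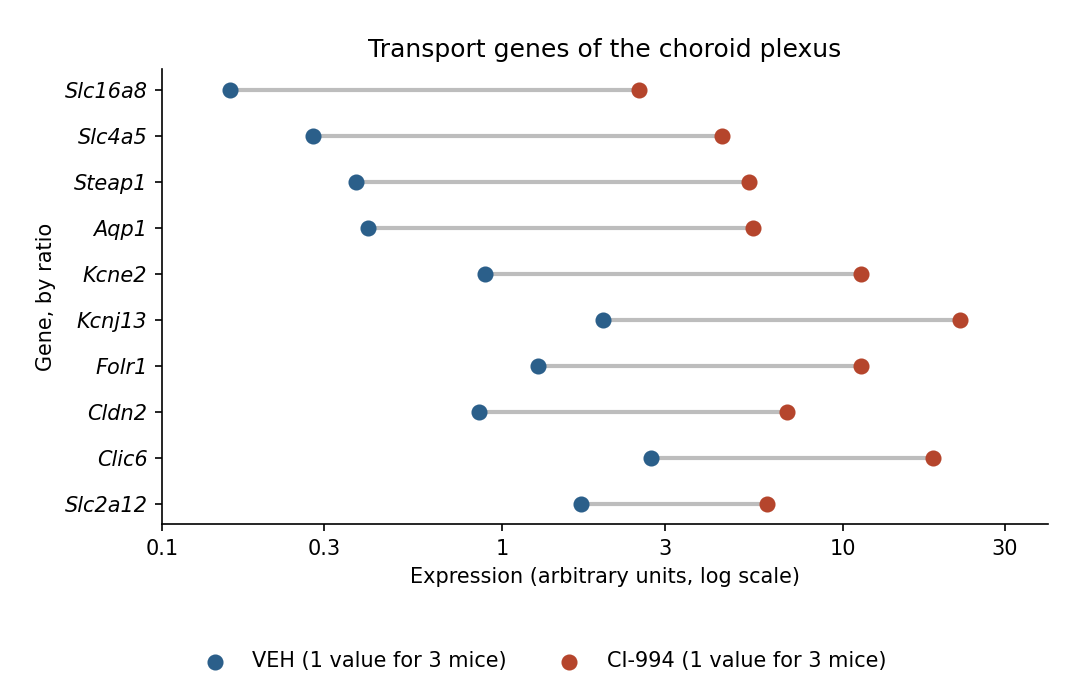
Expression of the 10 transport genes in arbitrary units on a log scale, with 1 value per group that combines 3 mice and therefore no error bar. Every CI-994 point lies to the right of its VEH point, from 3.52-fold (Slc2a12) to 16-fold (Slc16a8).

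Because the genes shared a direction, their promoters are shown first, as RefSeq gives them in build GRCm38.p6 from 250 bases before to 50 after the transcription start. This build differs from the mm9 build of the expression table. A promoter was matched by symbol for 8 of the 10 genes, with 2 starts for Kcne2; Clic6 and Folr1 were not matched. The promoters of 5 genes, for Kcne2 that of the upstream start, are printed, 5′ to 3′ on the gene's strand, with motif matches in capitals. The motifs were the TATA box TATAAA, the CCAAT box, the GC box GGGCGG, the OTX homeobox motif TAATCC and the forkhead motif TGTTTAC, each searched on both strands, and no matches overlapped.
Slc4a5, chr6:83237125-83237424, plus strand: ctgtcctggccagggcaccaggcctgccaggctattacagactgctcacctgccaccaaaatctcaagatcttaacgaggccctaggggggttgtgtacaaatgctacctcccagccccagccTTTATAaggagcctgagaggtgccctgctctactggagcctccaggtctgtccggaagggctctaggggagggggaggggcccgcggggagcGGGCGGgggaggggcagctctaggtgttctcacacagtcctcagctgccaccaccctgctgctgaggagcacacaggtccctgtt
Aqp1, chr6:55336049-55336348, plus strand: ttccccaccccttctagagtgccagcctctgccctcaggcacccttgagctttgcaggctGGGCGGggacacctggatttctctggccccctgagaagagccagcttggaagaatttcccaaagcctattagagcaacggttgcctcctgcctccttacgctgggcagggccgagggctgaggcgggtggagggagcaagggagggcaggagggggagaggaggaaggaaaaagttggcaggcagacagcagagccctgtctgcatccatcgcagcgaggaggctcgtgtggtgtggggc
Kcne2, chr16:92292139-92292438, plus strand: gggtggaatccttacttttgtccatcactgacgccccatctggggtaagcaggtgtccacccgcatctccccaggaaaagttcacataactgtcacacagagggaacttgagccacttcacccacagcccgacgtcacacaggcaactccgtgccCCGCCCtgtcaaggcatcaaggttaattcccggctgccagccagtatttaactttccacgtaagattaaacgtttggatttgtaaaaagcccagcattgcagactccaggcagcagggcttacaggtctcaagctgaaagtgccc
Kcnj13, chr1:87394680-87394979, minus strand: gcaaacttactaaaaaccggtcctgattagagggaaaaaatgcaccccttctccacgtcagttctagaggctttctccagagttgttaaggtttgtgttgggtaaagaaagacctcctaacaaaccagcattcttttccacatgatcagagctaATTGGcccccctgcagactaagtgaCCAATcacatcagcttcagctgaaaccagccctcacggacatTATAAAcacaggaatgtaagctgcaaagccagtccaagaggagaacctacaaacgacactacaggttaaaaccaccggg
Cldn2, chrX:139800558-139800857, plus strand: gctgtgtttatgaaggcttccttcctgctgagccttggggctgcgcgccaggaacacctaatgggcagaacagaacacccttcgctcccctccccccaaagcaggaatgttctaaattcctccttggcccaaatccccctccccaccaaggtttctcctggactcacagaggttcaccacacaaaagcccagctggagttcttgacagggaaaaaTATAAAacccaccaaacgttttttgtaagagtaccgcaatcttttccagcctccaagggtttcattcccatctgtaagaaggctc

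TATAAA was found in 3 of the 8 genes (37.5%), against 15.7% of the 27025 genes with a promoter in the same reference. In Kcnj13 it began 29 bases and in Cldn2 35 bases before the start on the gene's strand, and in Slc4a5 it was on the opposite strand 127 bases before it. GGGCGG was found in 4 of 8 (Slc4a5, Aqp1, Kcne2 and Steap1), against 38.2% of all genes. CCAAT was present in 1 of 8, as a pair of matches in Kcnj13, against 41.1%. TAATCC and the forkhead motif were in 0 of 8, against 8.14% and 4.05%, which says only that these letters are not in these windows. A difference from all promoters was not tested. CG dinucleotides numbered from 1 to 9 in 8 of the 9 promoter windows, beside a median of 7 over all promoters, while Steap1 had 33.

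The sodium bicarbonate cotransporter Slc4a5 carries bicarbonate and sodium at the ventricular face of the epithelium. It was at 4.43 units in CI-994 against 0.279 in VEH, 15.9-fold higher (log2 ratio 3.99). Its p-value in the authors' deposited table was 1.6e-14, the eighth smallest of the table. In mm9 its locus spans chromosome 6 from 83187368 to 83254939.

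Aqp1 forms the water channel of the same membrane. Its value was 5.44 units in CI-994 and 0.403 in VEH (13.5-fold, log2 ratio 3.75), with a p-value of 1.16e-10 in the authors' deposited table. It lies on the same chromosome as Slc4a5, from 55286292 to 55298549 (mm9). The astrocyte water channel Aqp4, in contrast, was lower in CI-994, at 37.2 against 47.2 units (log2 ratio -0.34, p-value 0.0193 in the authors' deposited table), and these were the 2 aquaporin genes in the table.

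Kcnj13 and Kcne2 are the potassium channel genes among the 10. Kcnj13 encodes Kir7.1, an inward rectifier that returns potassium at the ventricular face, and Kcne2 is an accessory subunit of voltage-gated potassium channels. Kcnj13 was at 22.1 units in CI-994 against 1.98 in VEH (11.2-fold, log2 ratio 3.48), and Kcne2 at 11.3 against 0.889 units (12.8-fold, log2 ratio 3.67). The authors' deposited table listed p-values of 7.71e-07 for Kcnj13 and 1.39e-12 for Kcne2. In the order of ratios these are the middle values of the 10, so the median of the 10 lies between them by definition. The deposited mm9 locus of Kcnj13 (chromosome 1, 89223572 to 89347385) spans 124 kb, whereas the gene spans 8.37 kb in GENCODE M21 and lies within Gigyf2, which is transcribed from the other strand. How strand was handled is not given in the sources, so reads of the overlapping exons cannot be told apart. Gigyf2 itself was not listed.

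Clic6, of the chloride intracellular channel family, was at 18.4 units in CI-994 against 2.73 in VEH (6.76-fold, log2 ratio 2.76). Its p-value is listed as 0 in the authors' deposited table, as are those of 5 further genes, 4 of them other choroid plexus markers. Clic6 and Kcne2 lie 200.01 kb apart on chromosome 16, with loci at 92498391 to 92541486 and 92292633 to 92298378 in mm9. The 4 protein-coding genes annotated between them, Smim11, Fam243, Kcne1 and Rcan1, were not in the table under these symbols. Kcne1 is a relative of Kcne2.

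Cldn2, a claudin that forms a pore for cations and water in the tight junction, was at 6.85 units in CI-994 against 0.856 in VEH. This is 8.01-fold higher (log2 ratio 3.00), with a p-value of 3.63e-13 in the authors' deposited table. Of the 21 further tight junction genes listed, 1 was in the table: Cldn1, a sealing claudin, at 3.03 against 0.536 units (log2 ratio 2.50, p-value 6.23e-07 there). Cldn2 is X-linked (chromosome X, 136335346 to 136345927, mm9). Among the 16 X-linked genes listed, 11 were higher and 5 lower, where 41.9% of the table was higher. Cldn2 itself and Xist are among the 11, and the difference from the table was not tested.

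The carriers of solutes and metals followed the same direction. Slc16a8 encodes MCT3, a lactate and proton cotransporter known from the choroid plexus and the retinal pigment epithelium. It had the highest ratio of the 10, at 2.53 units in CI-994 against 0.158 in VEH (log2 ratio 4.00). Its p-value in the authors' deposited table, 0.000657, was nevertheless the largest of the 10. It had almost the same ratio as Slc4a5, and it was the gene lost when the p-values were adjusted for an assumed number of tested genes. Its mm9 locus lies on chromosome 15 from 79081445 to 79085178.

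The folate receptor Folr1, which takes folate across the epithelium into the cerebrospinal fluid, was at 11.3 units in CI-994 against 1.27 in VEH (8.90-fold, log2 ratio 3.15). In the authors' deposited table its p-value was 1.07e-09. Its neighbour Folr2 was not in the table. Folr1 is on chromosome 7 from 109006844 to 109019197 (mm9).

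Steap1 belongs to a family of membrane metalloreductases that act on iron and copper. It was at 5.32 units in CI-994 against 0.372 in VEH, 14.3-fold higher (log2 ratio 3.84, p-value 4.52e-05 in the authors' deposited table). Steap2, the next gene on chromosome 5 with 41.8 kb between the deposited loci, was also higher, at 2.58 against 1.26 units (log2 ratio 1.04, p-value 0.0051 there). Steap1 spans 5736321 to 5749317 and Steap2 5664830 to 5694568 in mm9. For the other 9 transport genes, the nearest annotated protein-coding gene on either side was not in the table under its current symbol.

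Slc2a12, a facilitative transporter of the glucose carrier family, had the lowest ratio of the 10. It was at 6.00 units in CI-994 against 1.70 in VEH (3.52-fold, log2 ratio 1.82), with a p-value of 0.00012 in the authors' deposited table. The annotation places Tbpl1 on the opposite strand with an exon overlap, and the deposited locus (chromosome 10, 22364816 to 22451253, mm9) spans 86.4 kb against 59.3 kb for the gene in GENCODE M21. It was the only member under 4-fold.

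**Figure D2:**
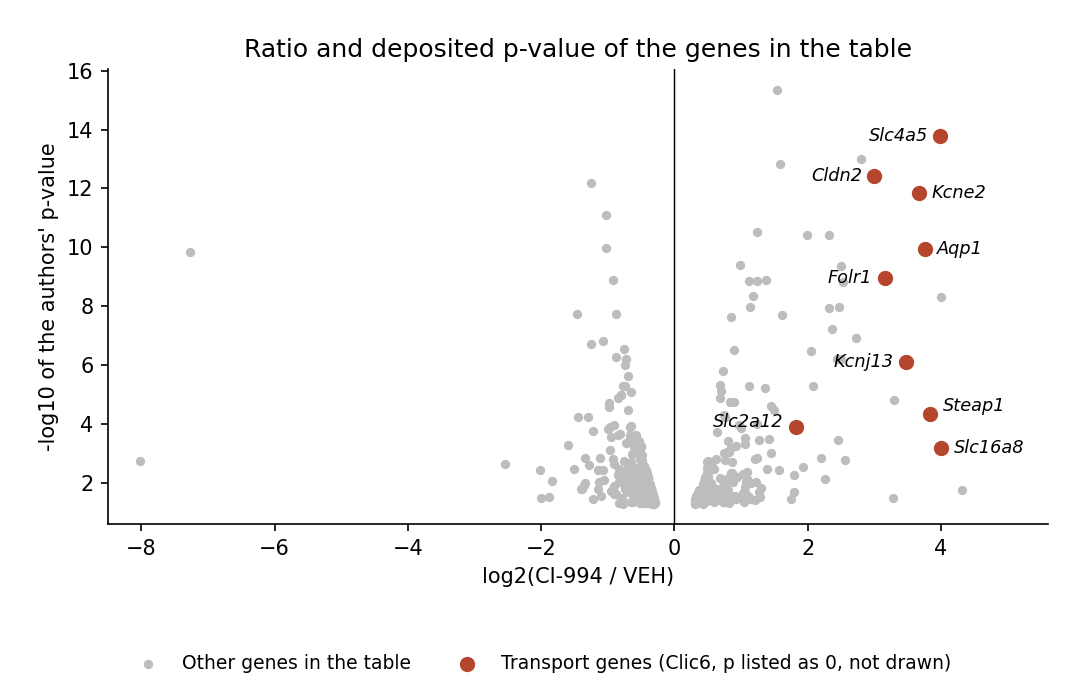
The log2 ratio of CI-994 over VEH (horizontal) against -log10 of the p-value in the authors' deposited table (vertical) for the genes of the table, with the transport genes in red and 6 genes with p listed as 0, Clic6 among them, left out. The drawn transport genes lie at log2 ratios from 1.82 to 4.00, and Slc16a8 and Slc4a5 share nearly the same ratio at p-values of 0.000657 and 1.6e-14.

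In the order of ratios over the whole table, the 10 genes took ranks between 3 and 36, and 8 of the first 12 places were theirs. Tmem72 (log2 ratio 4.00) and Cox8b (4.32) stood above Slc16a8. Around Slc2a12, the nearest ratios were those of Plin4 (1.92) and Sulf1 (1.98) above and Calml4 (1.80) and Pla2g5 (1.79) below. The 5 genes with ratios closest to the median of the 10 were 1110059M19Rik (3.29), the epithelial polarity gene Crb3 (3.29), Tmem72, the coagulation factor F5 (2.90) and Cox8b. This likeness rests on 1 ratio of 2 group values, and Crb3 and Cox8b had p-values of 0.033 and 0.0169 in the authors' deposited table.

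The 10 genes lay on 8 chromosomes, since Aqp1 and Slc4a5 share chromosome 6 and Kcne2 and Clic6 chromosome 16. All 10 are annotated as protein-coding. Their deposited loci had a median span of 12.7 kb, against 29.6 kb over the table, and ranged from 3.73 kb (Slc16a8) to the 124 kb of Kcnj13. In VEH, 6 of the 10 were under 1 unit, and these had log2 ratios from 3.00 to 4.00, while the 4 at 1 unit or more had ratios from 1.82 to 3.48. As VEH is the denominator, a low VEH value by itself raises the ratio, so this split describes the arithmetic only. In CI-994, 0 of the 10 were under 1 unit. Adding 1 unit to both values before the ratio lowered the log2 ratio of Slc16a8 to 1.61 and that of Slc4a5 to 2.09, and Kcnj13 then had the highest, at 2.96. At least 4-fold higher were then 8 of the 10, against 2.74% of the table, and with 0.1 unit added 9 of the 10, against 6.11%. Whether values are scaled to gene length is not given in the sources, so levels were not ranked between genes.

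**Figure D3:**
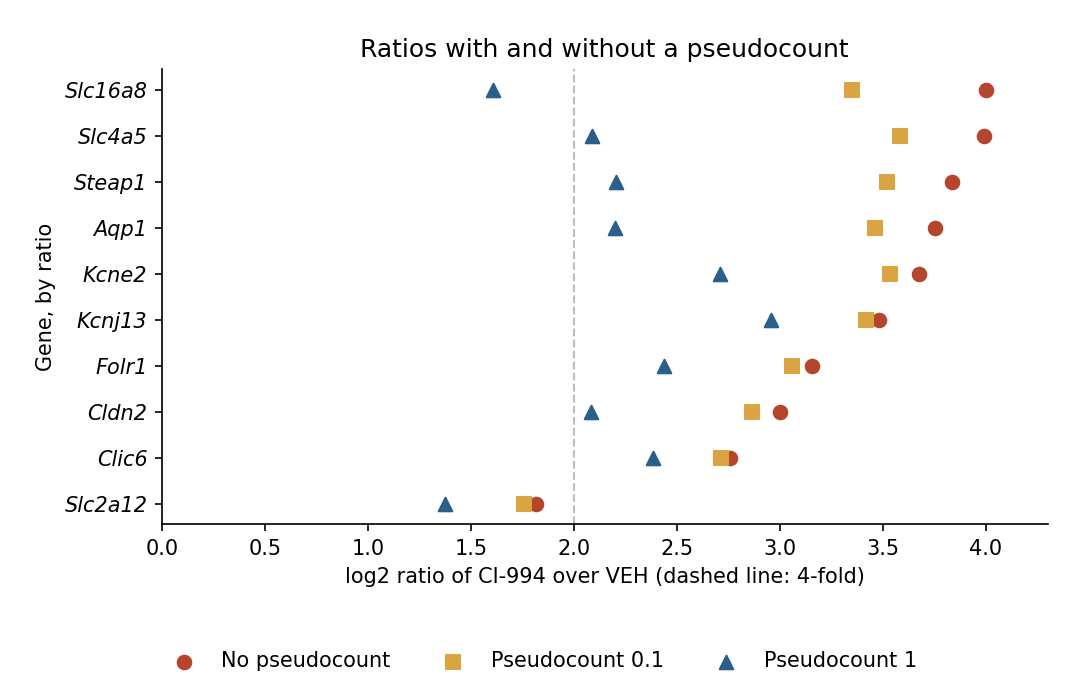
The log2 ratio of CI-994 over VEH for each transport gene without a pseudocount (circles), with 0.1 unit (squares) and with 1 unit (triangles) added to both group values; the dashed line marks 4-fold. All points lie above 0, Slc16a8 moves most (4.00 to 1.61), and with 1 unit Slc16a8 and Slc2a12 lie below 4-fold.

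Other transport and tight junction genes, from 3 lists of 125 genes in all, were mostly not in the table. Since the table holds only genes with a deposited p below 0.05, absence, here and elsewhere, does not show that a gene was unchanged. An absent gene may also be not expressed, not tested or listed under another symbol. The lists were not limited to genes of this epithelium, since the astrocyte water channel Aqp4 and the meningeal marker Slc13a3 are among them. Of the 125 genes, 18 were in the table, 14 higher and 4 lower in CI-994, where 58.1% of the table was lower. Their median log2 ratio was 0.77, and 3 were at least 4-fold higher. Among 45 ion, water and acid-base genes, 7 were higher and 1, Aqp4, lower, with a median log2 ratio of 0.67. The cation channel Trpv4 was at 3.32 units in CI-994 against 0.61 in VEH (log2 ratio 2.44), and the anion exchanger Slc4a2, a relative of Slc4a5, at 14.3 against 6.49 units (1.14). The channel Trpm3 (0.79) and the carbonic anhydrases Car14 (0.72), Car12 (0.63) and Car4 (0.55), which interconvert carbon dioxide and bicarbonate, had smaller ratios. Slc12a2, the sodium potassium chloride cotransporter at the ventricular face and in many other brain cells, was at 18.58 against 14.98 units, with a log2 ratio of 0.31 and a p-value of 0.0475 in the authors' deposited table.

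Among 59 solute, vitamin, hormone and metal genes, 6 were higher and 3 lower, with a median log2 ratio of 0.89. The zinc importer Slc39a4 was at 1.94 units in CI-994 against 0.42 in VEH (log2 ratio 2.21). The sulfate carrier Slc13a4 (log2 ratio 1.06), Steap2, the carrier Slc16a12 (1.03), a relative of Slc16a8, and the copper importer Slc31a1 (0.89) were also higher. Lower were the cystine and glutamate exchanger Slc7a11 (-0.66), the dicarboxylate carrier Slc13a3 (-0.64) and the amino acid carrier Slc7a5 (-0.32). The 10 genes thus had larger ratios than 15 of these 18 genes, whereas Cldn1, Trpv4 and Slc39a4 exceeded Slc2a12 among them. As both sets were chosen with earlier results known, the difference was not tested.

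Further markers of the choroid plexus were also higher. Of 30 such markers (Trpm3 is on the ion list as well) 25 were in the table. The list was chosen with earlier results of these data known, so its counts describe the choice and were not tested. All 25 markers were higher in CI-994, against 41.9% of the table, and 23 were at least 2-fold higher, against 16.8%. Their median log2 ratio was 1.99, from 0.76 (Cab39l) to 4.32 (Cox8b). The sum of their values was 705 units in CI-994 and 189 in VEH, or 328 and 113 without Enpp2, and none was at 0 in either group. Whether values are scaled to gene length is not given, so the sums here and below are a description only. Otx2, a transcription factor that defines this epithelium, was at 6.53 against 0.988 units, and Kl, which encodes klotho, at 26.5 against 9.10 units. Ttr, which this epithelium transcribes abundantly, was not listed. Whether the groups differed in the amount of choroid plexus in the dissected tissue was not tested.

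The few markers of adjoining tissues that were in the table differed in direction. Of 22 ependymal markers, from the ciliated lining of the ventricles, Rsph4a (log2 ratio 0.75) and 1700009P17Rik (1.04) were in the table and higher. Their p-values were 0.0303 and 0.0451 in the authors' deposited table. Of 20 meningeal markers 6 were in it, with Aldh1a2 (-1.15), Fmod (-1.14) and Gjb2 (-0.88) among the 5 lower (Slc13a3, named above, is another) and Igf2 (1.38), also a choroid marker, higher; their summed value was 357 units in CI-994 and 475 in VEH. Most of that sum was Ptgds (307 and 443 units), and without it the sum was 49.99 and 32.0 units, of which Igf2 made up 41.1 and 15.8. The 16 endothelial and blood markers gave Vwf (-0.51, p-value 0.0324 in the authors' deposited table) and the globin Beta-s (0.60, p-value 0.0206 there). Of 12 markers of the retinal pigment epithelium, which shares many transporters with the choroid plexus, 3 were in the table, namely Rdh5 (2.36) and the transport genes Kcnj13 and Slc16a8. Its defining gene Rpe65 was not among them. Markers of granule cells, which are hippocampal neurons of the dentate gyrus, were present in both groups. This list too was chosen with earlier results of these data known, so its counts describe the choice and were not tested. Of 27, 21 were in the table, all lower in CI-994 (median log2 ratio -0.91), where 58.1% of the table was lower. Among them were C1ql2 (-2.32), Grem1 (-2.02) and Pdyn (-1.51). The summed value of the 21 was 306 units in CI-994 against 561 in VEH, and none was at 0. Prox1, which defines these neurons, was at 12.6 and 23.1 units. What part these marker differences had in the ratios of the transport genes was not tested.

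**Figure D4:**
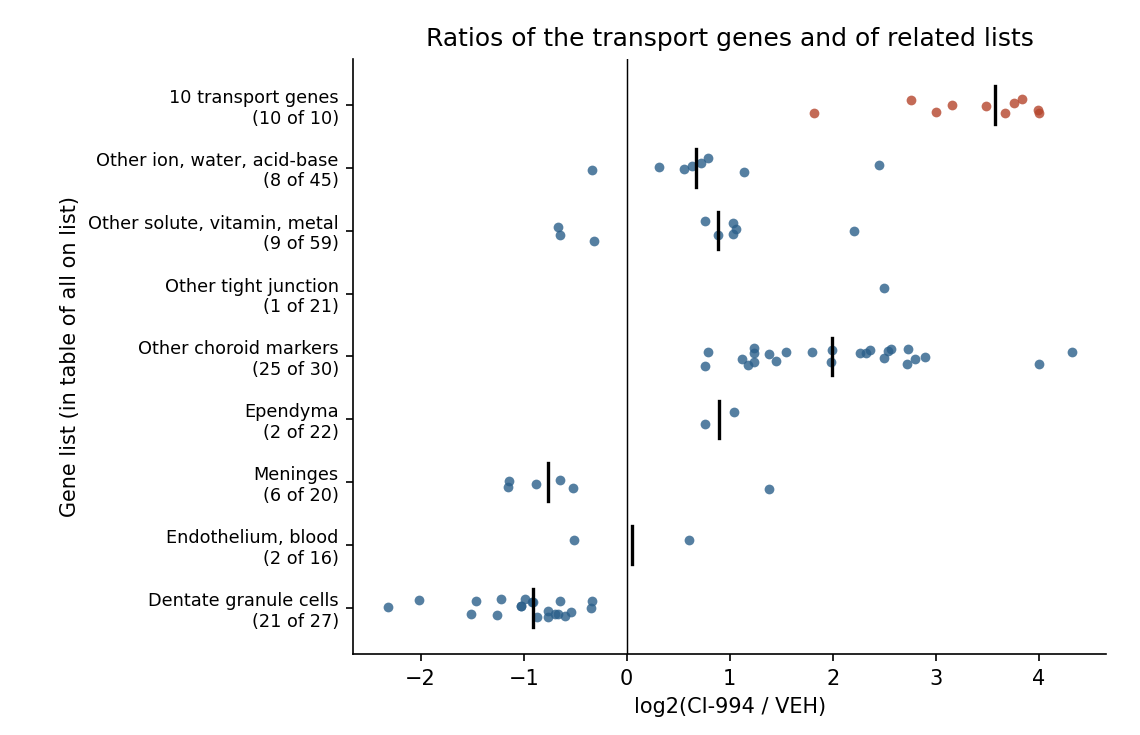
The log2 ratio of CI-994 over VEH for the 10 transport genes (red) and for the members of 8 related gene lists that were in the table (blue), 1 point per gene, with a black line at the median of each list of 2 or more genes and the points spread vertically for clarity. The transport genes lie between 1.82 and 4.00, the 18 other transport genes mostly between -0.66 and 1.14, and the dentate granule cell markers all below 0.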

How the data were processed

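RNA sequencing values of 3 CI-994 and 3 VEH mice were used. The submitters' processing notes name TopHat, Cuffdiff and build mm9; tool versions, annotation, filters and strand handling are not given in the sources. The authors deposited 1 table of 475 genes. Per the file headers, it holds expression in arbitrary units for the groups (a normalised signal), a p-value, and the log2 of the fold change. All deposited p-values were below 0.05, and the header does not call them adjusted. The 3 mice of a group had been combined, so no test across mice was possible, and the number of mice limits the precision.

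From these values log2(CI-994/VEH), ranks, counts and medians were computed with Python 3.11.15, numpy 2.4.6 and pandas 2.3.3, without a pseudocount or filter; figures used matplotlib 3.10.9. The 10 genes and 9 gene lists were chosen with earlier results of these data known. Besides them, genes were named by rule: those of the transport lists and of the 10 genes' families, up to 3 of each direction from other lists, the 5 nearest the median ratio, the 2 on either side of the extreme members, and Ttr, Xist, Ddx3y and Uty. Outside these rules, Cab39l, Otx2, Kl, Enpp2, Ptgds, Prox1 and genes not in the table were added after their values were seen. A gene of the transport lists is not reported here by name. Gene structure came from GENCODE M21 and promoters from RefSeq, both on GRCm38, whose gene coordinates were not combined with mm9. The motif search recovered a motif planted in simulated sequences that held no other bases, so matches in real sequence were not tested by it.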

Additional observations from a re-analysis of the deposited data

How the results depend on the processing

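Each direction rests on the labels of the group values. Where the heading of the log2 column is followed instead, all turn: the median of the 10 transport genes becomes -3.58, with 0 higher and 0 at least 4-fold higher, and single log2 ratios become -4.00 (Slc16a8), -3.99 (Slc4a5), -3.84 (Steap1), -3.75 (Aqp1), -3.67 (Kcne2), -3.48 (Kcnj13), -3.15 (Folr1), -3.00 (Cldn2), -2.76 (Clic6) and -1.82 (Slc2a12). A pseudocount of 1 lowered the median from 3.58 to 2.20, with 8 of the 10 still at least 4-fold higher (2.74% of the table), and 0.1 gave 3.38 with 9 (6.11% of the table). Requiring 1 unit in both groups left 4 of the 10 (Kcnj13, Folr1, Clic6 and Slc2a12) and 427 of the 475 genes of the table. The median of the 4 was 2.96 and 3 were at least 4-fold higher. The count fell because fewer genes qualify. The median also fell, since the 6 genes left out, all under 1 unit in VEH, had log2 ratios from 3.00 to 4.00. The 4-fold share of the 427 was not computed. At a deposited p up to 0.01 or 0.001 all 10 stayed, and 14.5% of the table was higher with a p up to 0.001. Benjamini-Hochberg adjustment over 10000, 15000 or 20000 assumed tested genes, chosen after seeing the data, kept 9 of the 10 each time and lost Slc16a8. Of the 475 genes of the table it left 110, 100 and 90 in turn. At p up to 0.01, which admits fewer genes, lower genes numbered 0 of the ion list, 1 of the solute list and 2 of the meningeal list, and the ependymal list had 0 higher and the endothelial and blood list 0 in either direction. No paired analysis was possible because the table holds 1 combined value per group, and for the same reason no mouse could be left out.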
